A study of Mus musculus with 24 samples.

Results

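Accessible chromatin was examined at 38 genes of the unfolded protein response and the secretory pathway in splenic germinal center (GC) B cells of mice that lacked 1 allele of Crebbp, of Kmt2d, or of both. All peaks of the deposited consensus table that overlapped the GENCODE gene body of a member, extended by 10 kb on each side, were taken, which gave 172 of 65483 peaks. Of these, 41 were promoter peaks, which overlapped the 1 kb on either side of a transcription start site (TSS) of the member, and 131 were other peaks. All 38 genes had a promoter peak. Edem1, Sec24d and Sec31a had 2 each, and Dnajb9, Sec61b, Lman1 and Ddit3 had no other peak.

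The animals were 8-week-old mice on a C57BL/6J background, described in the study as female. Every mouse, the WT controls included, carried 1 Cγ1-cre allele, which is driven from the IgG1 constant region locus and so acts in B cells that transcribe it, mostly GC B cells. WT mice (n = 4) carried Cγ1-cre alone. C mice (n = 4) also carried Crebbp fl/+, K mice (n = 4) Kmt2d fl/+, and CK mice (n = 5) both floxed alleles. CREBBP is a histone acetyltransferase and KMT2D a histone H3K4 methyltransferase, and both work at enhancers. All mice were immunized with sheep red blood cells (SRBCs) 10 days before GC B cells were sorted from spleen, and 1 ATAC-seq library was made per mouse. In ATAC-seq a transposase cuts open DNA and inserts adapters, so that a peak's fragment count measures how accessible that stretch is. The C, K and CK comparisons below share the same 4 WT mice.

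Proteins bound for the cell surface or for secretion enter the endoplasmic reticulum (ER) through the Sec61 channel, are folded by chaperones and disulfide isomerases, and leave in COPII-coated vesicles, while chains that fail to fold are returned to the cytosol and degraded (ER-associated degradation, ERAD). The sensors IRE1 (encoded by Ern1), PERK (Eif2ak3) and ATF6 respond to unfolded chains by raising the output of this machinery and slowing translation. In the B lineage the pathway is known for its expansion as activated cells become antibody-secreting plasma cells, where IRE1 splices the mRNA of the transcription factor XBP1.

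The promoters of the classical chaperones carry the ER stress response element (ERSE), at which ATF6 and NF-Y are known to bind, and they are shown here because they are the sequences through which the pathway addresses these genes. RefSeq promoter windows on GRCm38.p6, which hold 250 bases before and 50 bases after a start, were found for 33 of the 38 genes. Manf, Atf6, Sec61a1, Lman1 and Derl1 had none. The 33 genes had 37 windows, of which 35 overlapped a promoter peak of the gene. The sequences below are on the strand of the gene, with the ERSE match in capitals, and Hsp90b1 has 2 matches.
Hspa5, chr2:34772019-34772048, plus strand: acttcaCCAATCGGAGGCCTCCACGacggg
Pdia6, chr12:17266470-17266529, plus strand: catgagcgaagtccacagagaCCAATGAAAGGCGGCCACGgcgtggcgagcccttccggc
Canx, chr11:50325780-50325839, minus strand: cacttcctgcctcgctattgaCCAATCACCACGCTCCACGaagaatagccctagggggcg
Dnajc3, chr14:118937806-118937865, plus strand: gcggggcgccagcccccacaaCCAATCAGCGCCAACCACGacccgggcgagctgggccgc
Syvn1, chr19:6046511-6046570, plus strand: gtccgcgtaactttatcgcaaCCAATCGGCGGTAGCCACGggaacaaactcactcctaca
Hsp90b1, chr10:86705510-86705694, minus strand: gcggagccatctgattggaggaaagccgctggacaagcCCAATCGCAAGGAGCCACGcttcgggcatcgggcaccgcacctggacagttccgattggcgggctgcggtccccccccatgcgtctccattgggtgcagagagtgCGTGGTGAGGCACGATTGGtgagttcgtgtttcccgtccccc
Calr, chr8:84846935-84847181, minus strand: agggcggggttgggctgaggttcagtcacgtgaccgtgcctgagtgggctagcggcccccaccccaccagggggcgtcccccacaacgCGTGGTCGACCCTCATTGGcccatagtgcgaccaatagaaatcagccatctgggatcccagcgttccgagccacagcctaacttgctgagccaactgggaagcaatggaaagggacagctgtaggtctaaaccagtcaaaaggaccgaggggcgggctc

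The ERSE, searched on both strands as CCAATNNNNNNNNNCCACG, was found in 7 of the 33 members with a window (21.2%) and in 39 of 32851 RefSeq windows of the same length (0.119%). The matches in these 7 members, in 7 of the 37 member windows, all lay before the RefSeq start. That of Hspa5 lay downstream of the GENCODE gene start. Member shares here count genes, while the shares of all RefSeq windows count windows. The shorter ERSE-II, ATTGGNCCACG, was found in 2 members (6.06%), Herpud1 and, downstream of its start, Dnajb11, against 12 of all windows (0.0365%). The unfolded protein response element (UPRE), TGACGTGG, was found in 1 member (3.03%), Sec24d, 26 to 19 bases before its RefSeq start, against 0.676% of all windows. This match, too, lay downstream of the GENCODE gene start. The element read by ATF4 with CHOP was searched only as TGATGNAAT. This spelling was in 0 member windows against 0.965% of all, and other spellings of the element were not searched. The cyclic AMP response element, TGACGTCA, was in 1 (Ell2) against 1.79%. In the spellings searched, no window of a member held 2 different elements. These are matches of letters and not measured binding. The Herpud1 and Sec24d promoters are printed with the ERSE-II and the UPRE in capitals, since the Sec24d promoter is the promoter peak called below and Herpud1 has a called peak upstream.
Herpud1, chr8:94386179-94386428, plus strand: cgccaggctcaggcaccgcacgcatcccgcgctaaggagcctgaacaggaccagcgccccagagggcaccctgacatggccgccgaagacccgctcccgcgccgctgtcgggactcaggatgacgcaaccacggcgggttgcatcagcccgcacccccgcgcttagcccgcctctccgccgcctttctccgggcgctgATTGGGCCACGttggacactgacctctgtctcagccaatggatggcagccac
Sec24d, chr3:123267459-123267488, plus strand: gcccgggcgccTGACGTGGcactagcaacc

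Depth ranged from 17483706 to 21857738 fragments in peaks over the 17 libraries, and a member promoter peak had a median of 1543 fragments per library against 118 for the other member peaks. All 10 GC B cell marker genes examined had a promoter peak, as did 6 of 6 follicular or memory B cell markers, 5 of 6 plasma cell markers (not Tnfrsf17) and 2 of 6 myeloid markers. None of 6 T cell markers, Cd3e, Cd4 and Cd8a among them, had one. Summed over all its peaks, the GC B cell list lay at 2270 to 2543 CPM (counts scaled to library size) in WT and 2078 to 2292 in CK, where 7 of its 115 peaks were called, 1 gained and 6 lost. The plasma cell list lay at 645 to 677 CPM in WT and 598 to 671 in CK, with 4 of 32 peaks called and all of them lost. In CK 2 of 35 follicular or memory peaks, 1 of 8 T cell peaks and 0 of 17 myeloid peaks were also called, and in K 1 follicular or memory peak and 1 T cell peak, each of them lost, where 6.84% of all peaks were called in CK and 1.48% in K. Their part in the results below was not tested, and in bulk libraries fewer cells of a type and less accessibility per cell cannot be told apart. Fragments over 11 peaks of the short arm of chromosome Y, at 73.8 to 85.2 CPM, were present in 9 libraries (2 WT, 2 C, 3 K and 2 CK) and were at most 0.0558 CPM in the other 8, which goes against the description of all mice as female. All results below are for the 17 libraries, and each called peak is also given within the libraries with and without this signal. At Crebbp and Kmt2d, the targeted genes, 0 of 2 promoter peaks and 0 of 15 other peaks were called in C, K or CK against WT, so accessibility there gave no check of the genotypes.

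In WT mice the members' promoters were widely open but differed strongly among themselves. Levels are given as CPM per kb of peak, so that peaks of different length can be compared. The median of the 41 member promoter peaks was 48.7 CPM per kb, against 17.96 over the 16179 peaks near a protein-coding TSS. By CPM per kb the highest levels were those of 3 ERAD genes, Derl1, Sel1l and Derl2. The order depends on this scaling, since by CPM per peak Syvn1 (178), Edem1 (158) and Ddit3 (155) were highest. Derl1, a derlin of the retrotranslocation channel, lay at 104 ± 3.37 CPM per kb (SD, n = 4), Sel1l, the adaptor of the HRD1 ubiquitin ligase, at 97.8 ± 2.93, and Derl2 at 94.9 ± 3.38. Sel1l and Derl2 lay within each other's spread, and the Derl2 peak is shared with the start of Mis12. Next came the disulfide isomerase Pdia4 (71.5 ± 1.97 CPM per kb) and the sensor Eif2ak3 (69.7 ± 2.35), which also did not differ beyond their spread, and Hspa5, which encodes BiP, the main Hsp70 chaperone of the ER, lay at 62.0 ± 0.53. The sensors were spread over this range, since Ern1 lay at 34.0 ± 2.35 CPM per kb and Atf6 at 14.9 ± 0.76. Sec24d, a COPII cargo adaptor, lay at 10.5 ± 0.43 CPM per kb, and Fkbp11, a prolyl isomerase of secretory cells, was lowest among the main promoter peaks at 2.81 ± 0.24. Besides Mis12, promoter peaks were shared with a neighbor at 5 members (Dnajb11 with Tbccd1, Pdia3 with Catsper2, Hsp90b1 with Ttc41, Ddit3 with Mbd6 and Sec61b with Alg2), where the signal cannot be assigned to either gene.

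**Figure D1:**
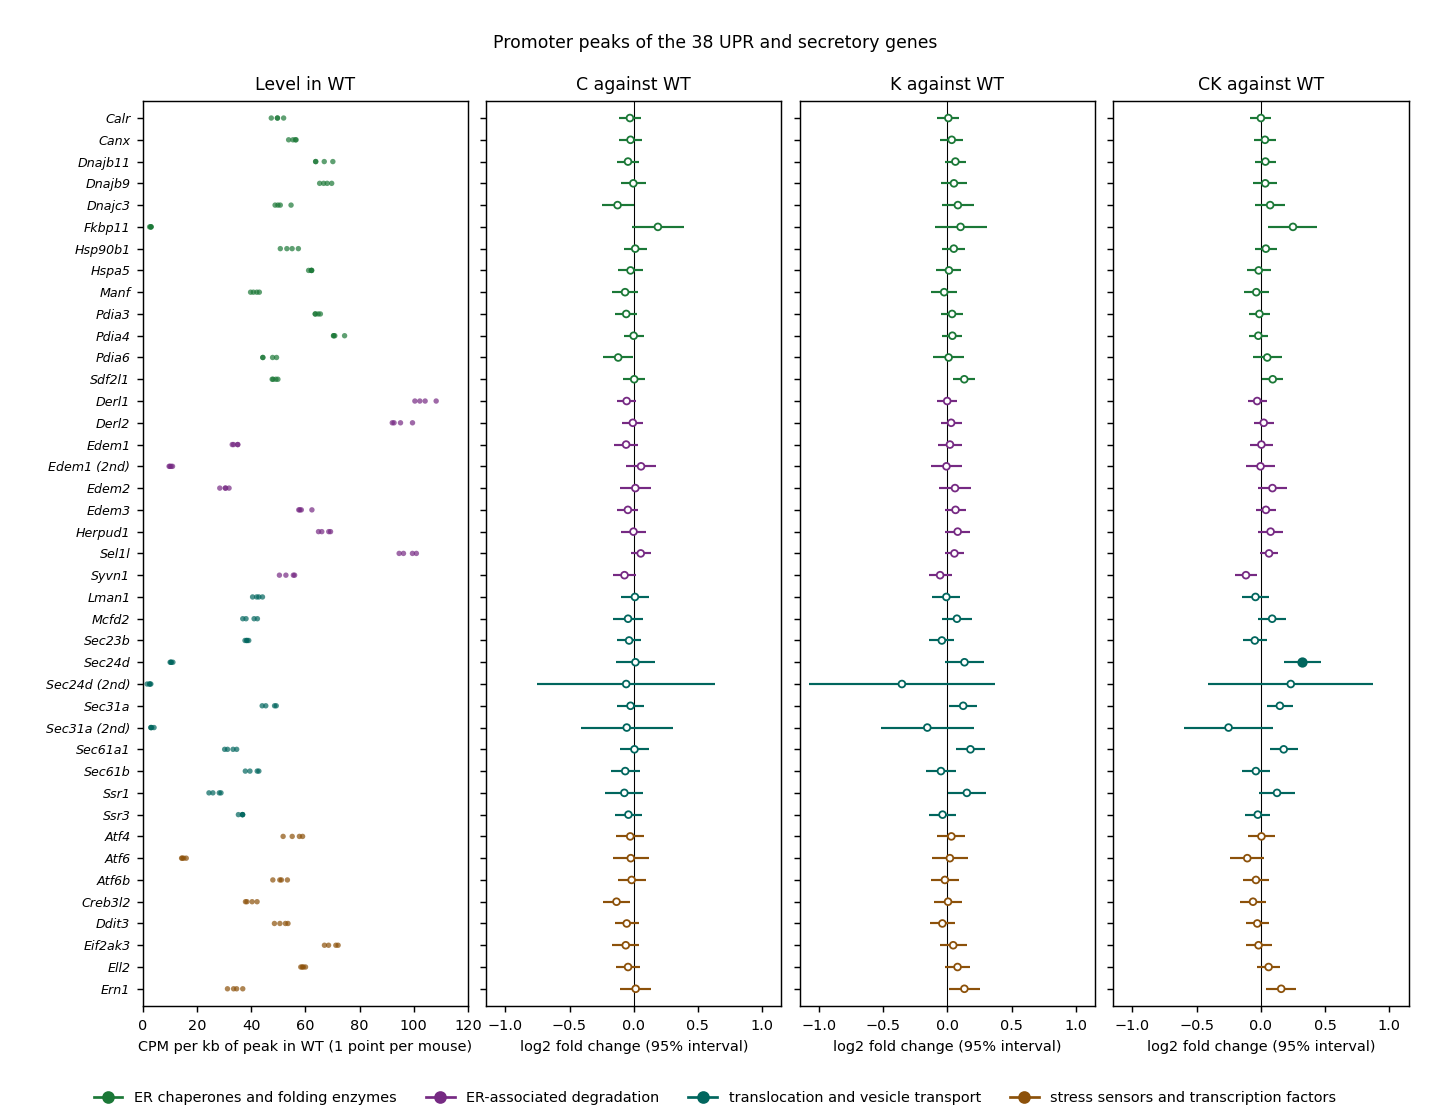
The 41 promoter peaks of the 38 genes, colored by role. The left panel plots CPM per kb of peak in WT with 1 point per mouse, and the others the log2 fold change of C, K and CK against WT with its 95% interval (open circles not called, the filled circle called). Derl1, Sel1l and Derl2 sit highest in WT, most intervals hold 0, and Sec24d in CK, at 0.32, is the only filled circle.

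The members' other peaks were weaker, at a median of 6.19 CPM per kb in WT against 3.95 for the other peaks of the whole table. Of the 131, 60 lay in introns, 13 in exons, 15 in the upstream flank and 43 in the downstream flank, and 18 overlapped the promoter of another protein-coding gene. The table's other peaks, here and below, leave out every peak within 1 kb of a protein-coding TSS, so the sets are not fully alike. Atf6 had most peaks in all with 14, followed by Eif2ak3 with 13 and Ern1 with 12. The promoter peaks had a median GC content of 57.1% against 55.8% for all promoters, and the other peaks 45.8% against 46.6%. Repeat sequence took up over 50% of 0 of 41 member promoter peaks (1.29% of all promoters) and of 12 of 131 other peaks (9.16%, against 8.58% of the table).

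Whether loss of 1 Crebbp allele altered these genes was asked by comparing C with WT. A peak was called when its p from edgeR's quasi-likelihood F test, adjusted by the Benjamini-Hochberg method over all 65483 peaks, was below 0.01. In C, 0 of 41 promoter peaks and 0 of 131 other peaks were called, where 0.160% of all peaks were. At an unadjusted p under 0.05, edgeR gave 3 promoter peaks and 9 other peaks (8.90% of all peaks and 8.57% of all promoters passed this level), and DESeq2 called 0 of either kind. The 3 promoters were those of the disulfide isomerase Pdia6 (log2 fold change -0.12), of Dnajc3, a cochaperone of BiP (-0.13), and of Creb3l2, a membrane-bound transcription factor related to ATF6 (-0.13), none of which passed the test. The median log2 fold change was -0.03 over the member promoters and -0.01 over all promoters, and with loess offsets it was 0.01 over the members, so its sign was not stable. The 95% interval lay within 1.5-fold of no change at 40 of 41 promoters and at 94 of 131 other peaks. The promoter outside was the weaker peak of Sec24d, which has few fragments.

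Loss of 1 Kmt2d allele (K against WT) gave 0 called promoter peaks of 41 and 1 called other peak of 131, which was gained, where 1.48% of all peaks, 1.96% of promoters and 1.32% of other peaks were called (0.327% of other peaks gained). At an unadjusted p under 0.05 there were 5 promoter peaks, all with values above 0, where 25.7% of all promoters and 20.6% of all peaks passed, and DESeq2 called 0 promoter peaks. They belonged to Sec61a1, the pore of the translocation channel (log2 fold change 0.18), to Ssr1, a translocon-associated subunit (0.15), to the BiP-associated Sdf2l1 (0.13), to Ern1 (0.13) and to Sec31a, an outer COPII coat subunit (0.12). Among the other peaks there were 25 at this level, 7 above and 18 below 0. The median log2 fold change was 0.03 over the member promoters and 0.06 over all promoters, and -0.02 over the members' other peaks against -0.03 over the table. With an offset for GC content the member promoters' median turned to -0.03 and that of their other peaks to 0.01.

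When both alleles were lost (CK against WT), 1 of 41 promoter peaks was called and was gained, that of Sec24d, where 10.1% of all promoters were called (8.61% gained and 1.48% lost). Of the other peaks 8 of 131 were called, 2 gained and 6 lost, where 5.77% of the table's other peaks were (1.88% gained and 3.89% lost). Over all peaks the share was 6.84%. Whether the members differ from the table in these shares was not tested. The table's other peaks hold no protein-coding promoter, while 18 of the 131 member other peaks overlap one of another gene. With an additional requirement of a fold change above 1.5, which the study also used, 0 promoter peaks and 3 other peaks (2 gained and 1 lost) remained. With a GC content offset there were 4 promoter peaks (1 gained and 3 lost) and 4 other peaks (2 gained and 2 lost). DESeq2 called 1 promoter peak and 11 other peaks. The shares of all peaks called at these other settings are not given, so these counts cannot be set against the table.

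**Figure D2:**
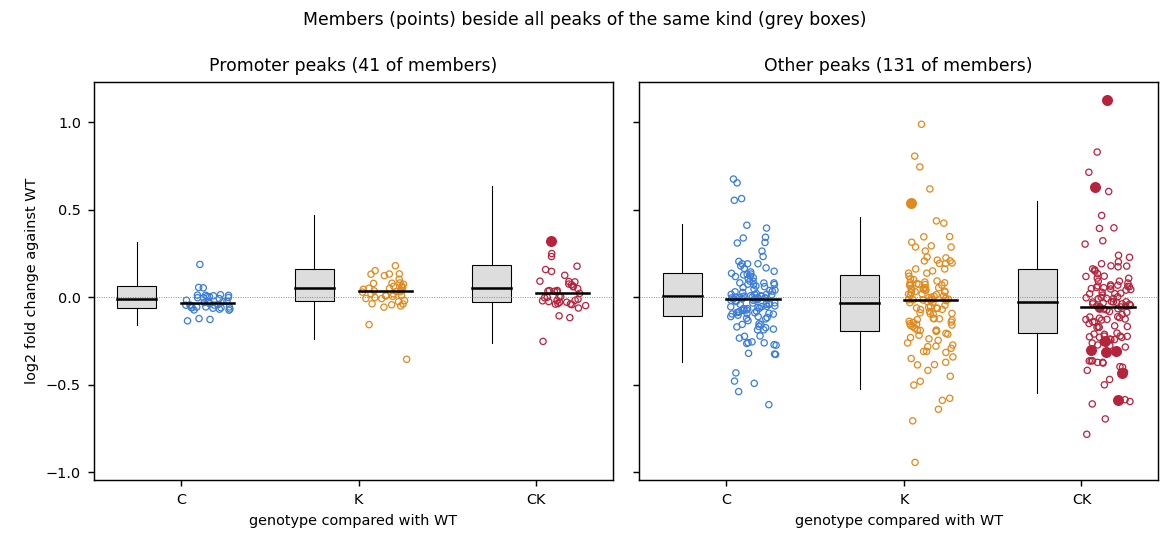
Log2 fold changes against WT in C, K and CK for the member promoter peaks (left) and other peaks (right), as points with a line at their median and filled where called. Beside them a grey box gives the median, quartiles and the 5% to 95% range of all peaks of that kind. In CK the middle 90% of member promoters ran from -0.11 to 0.23 and that of all promoters from -0.26 to 0.64, and that of the members' other peaks from -0.48 to 0.40 against -0.54 to 0.55.

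In CK the member promoters had a median log2 fold change of 0.02, against 0.06 over all promoters. Of the 41 values 17 were below 0, where 33.5% of all promoters were. With the GC content offset the medians of the members and of all promoters were -0.05 and 0.00, so the sign for the members was not stable. The other peaks had a median of -0.06 against -0.03 over the table, and 85 of 131 were below 0 (64.9%, against 54.6%). The 95% interval lay within 1.5-fold of no change at 39 of 41 promoters and within 1.2-fold at 34. Besides Sec24d, 6 promoters passed an unadjusted p of 0.05 without being called, where 34.5% of all promoters and 28.9% of all peaks passed. These were Fkbp11 (log2 fold change 0.25), Sec61a1 (0.18, adjusted p = 0.0243 in edgeR's quasi-likelihood test), Ern1 (0.16), Sec31a (0.15), Sdf2l1 (0.09) and Syvn1, which encodes the HRD1 ubiquitin ligase (-0.12).

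The genes were then taken by role. In CK the median log2 fold change of the promoter peaks was 0.03 for chaperones, 0.02 for ERAD genes, 0.09 for transport genes and -0.02 for sensors and transcription factors, and with the GC content offset it was -0.05, -0.02, -0.05 and -0.09, so only the last kept its sign. Of the 13 promoter peaks of ER chaperones and folding enzymes, 0 were called in CK, and 1 of their 33 other peaks was, a gained peak downstream of Hspa5, where 10.1% of all promoters and 5.77% of other peaks were. At an unadjusted p under 0.05 there were 2 of these promoters, Sdf2l1 and Fkbp11, and DESeq2 called 0. The Hspa5 promoter itself (chr2:34771159-34773075) lay at 119, 119, 117 and 119 CPM in WT replicates 1 to 4, at 120, 123, 112 and 112 in C, at 126, 129, 109 and 115.2 in K and at 117, 113, 120, 119 and 117 in CK. The genotypes overlapped throughout, and the log2 fold changes against WT were -0.03 for C, 0.01 for K and -0.02 for CK (95% interval -0.11 to 0.08). Hsp90b1, which encodes the ER member of the HSP90 family, lay at 128, 119, 123 and 113 CPM in WT and at 117 to 130 in CK at its promoter (chr10:86704771-86707003, shared with Ttc41), with log2 fold changes of 0.01, 0.05 and 0.04 in C, K and CK. The ranges of the 2 genotypes overlapped almost fully. The 10 member promoters with an ERSE, ERSE-II or UPRE had median log2 fold changes of -0.03 for C, 0.04 for K and 0.04 for CK, and the 23 without one had -0.04, 0.05 and 0.02.

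The gained peak downstream of Hspa5 had the largest log2 fold change in CK of all 172 member peaks. It is broad (chr2:34777024-34780911), starts inside the end of Hspa5, and its middle lies in an exon of the neighboring gene Rabepk, 6997 bp from the Hspa5 start, so it cannot be assigned to Hspa5. WT mice had 16.5, 14.7, 15.1 and 8.42 CPM, C mice 24.0, 20.7, 13.5 and 14.5, K mice 34.4, 21.2, 18.998 and 21.3, and CK mice 27.1, 41.0, 30.2, 26.3 and 25.1. All K and CK mice lay above all WT mice, C mice overlapped WT, and the spread within each genotype was wide. The log2 fold change was 0.41 in C (95% interval -0.00492 to 0.83), 0.81 in K (0.40 to 1.22, edgeR adjusted p = 0.0184, not called) and 1.13 in CK (0.74 to 1.52, a 2.18-fold rise, edgeR adjusted p = 0.000291). CK exceeded C by 0.72, which was not called (edgeR adjusted p = 0.0193). The rise in CK was called without any single mouse, and was 0.76 among libraries with Y signal and 1.44 among those without.

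At ERAD genes, 0 of 9 promoter peaks and 1 of 31 other peaks, a lost one upstream of Herpud1, were called in CK, where 10.1% of all promoters and 5.77% of other peaks were. By an unadjusted p under 0.05 only Syvn1 passed among these promoters, where 34.5% of all promoters did, and DESeq2 called 0. Their other peaks had a median log2 fold change of -0.17 against -0.03 over the table's other peaks, and 24 of 31 were below 0 (54.6% of the table's). With the GC content offset the median was -0.12 with 25 of 31 below 0, so that this direction was kept. Each member here contributes several peaks, which are not independent. Herpud1 encodes an ER membrane protein that recruits the HRD1 complex. The called peak (chr8:94376050-94379523), centered upstream of the gene start, was the strongest of the called peaks, at 101, 96.7, 102 and 104 CPM in WT, 87.8, 88.3, 99.3 and 98.3 in C, 87.0, 89.3, 89.8 and 99.2 in K, while CK mice had 85.4, 85.8, 83.2, 84.6 and 84.4. The 5 CK mice lay within 3 CPM of each other and below every WT mouse, and the C and K mice lay between or beside them. The log2 fold change was -0.25 in CK (95% interval -0.34 to -0.16, edgeR adjusted p = 0.000548), that is 0.840-fold, against -0.11 in C and -0.14 in K, which were not called. It was called without any single mouse, and was -0.23 with and -0.28 without Y signal. The center of this peak, shown as the sequence under the most precisely measured loss, held none of the motifs searched in peaks.
Herpud1 upstream peak, chr8:94377687-94377886, plus strand: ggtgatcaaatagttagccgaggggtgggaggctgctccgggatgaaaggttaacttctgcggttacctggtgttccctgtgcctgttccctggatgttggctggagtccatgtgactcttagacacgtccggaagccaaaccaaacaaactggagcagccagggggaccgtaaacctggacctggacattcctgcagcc

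An intronic peak of Derl1 (chr15:57883436-57884146, intronic by its midpoint, overlapping an annotated exon) was the only member peak called as lost in CK against C. It lay at 18.996, 16.9, 18.7 and 19.3 CPM in WT, 21.9, 17.2, 18.2 and 23.2 in C, 16.7, 13.1, 16.6 and 18.1 in K, while CK mice had 13.7, 13.03, 12.5, 16.2 and 16.5. Every CK value was under every WT and C value, and C replicates 1 and 4 were highest. The log2 difference of CK from C was -0.48 (95% interval -0.69 to -0.28, edgeR adjusted p = 0.00608) and from WT -0.36 (edgeR adjusted p = 0.0174, not called). It stayed called in 4 of 9 fits without a single mouse, with an adjusted p of up to 0.0387 without C replicate 4. It was -0.40 and not called with the GC content offset (edgeR adjusted p = 0.0256). It was -0.39 with and -0.56 without Y signal. The center of the peak holds an octamer, ATTTGCAT, the motif read by OCT2 and its coactivator OCA-B in B cells. On either strand, the octamer was found in the central 300 bases of 2 of 121 other member peaks (1.65%). Of all peaks of at least that length, promoter peaks included, 4.00% held it. The center is printed on the strand of Derl1 with the octamer in capitals.
Derl1 intron peak, chr15:57883692-57883891, minus strand: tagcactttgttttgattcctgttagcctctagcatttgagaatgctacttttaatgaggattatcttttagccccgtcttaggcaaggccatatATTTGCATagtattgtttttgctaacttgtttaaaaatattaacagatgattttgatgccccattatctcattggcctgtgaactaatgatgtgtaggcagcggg

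Translocation and vesicle transport genes had 11 promoter peaks, of which 1 was called in CK, and 16 other peaks, of which 1 was gained and 1 lost, where 10.1% of all promoters and 5.77% of other peaks were called. The called promoter was that of Sec24d (chr3:123266073-123268212), the promoter with the UPRE match printed above. WT mice had 22.1, 22.4, 23.6 and 21.4 CPM, C mice 22.04, 20.1, 25.1 and 23.3, K mice 24.1, 26.4, 22.3 and 25.5, and CK mice 28.9, 26.7, 25.6, 28.6 and 30.3. All CK mice lay above all WT and C mice, while WT, C and K overlapped. It differed from WT on the log2 scale by 0.01 in C, 0.13 in K and 0.32 in CK (95% interval 0.18 to 0.47, a 1.25-fold rise, edgeR adjusted p = 0.00273). CK exceeded C by 0.31 (0.17 to 0.45, edgeR adjusted p = 0.00927), the only promoter peak called in that comparison, where 3.07% of all promoters were. CK exceeded K by 0.19 (0.05 to 0.33) and the C change plus the K change by 0.18, neither of which was called (edgeR adjusted p = 0.485 and 1). Without WT replicate 4 the rise over WT was 0.30 and no longer called (edgeR adjusted p = 0.0140), and the difference from C was called in 3 of 9 fits without a single mouse, with 0.25 and an adjusted p of 0.04997 without C replicate 2. With the GC content offset the rise over WT was 0.28 and called (edgeR adjusted p = 0.00848), and the difference from C was 0.27 and not called (0.0305). The rise over WT was 0.36 with and 0.29 without Y signal.

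**Figure D3:**
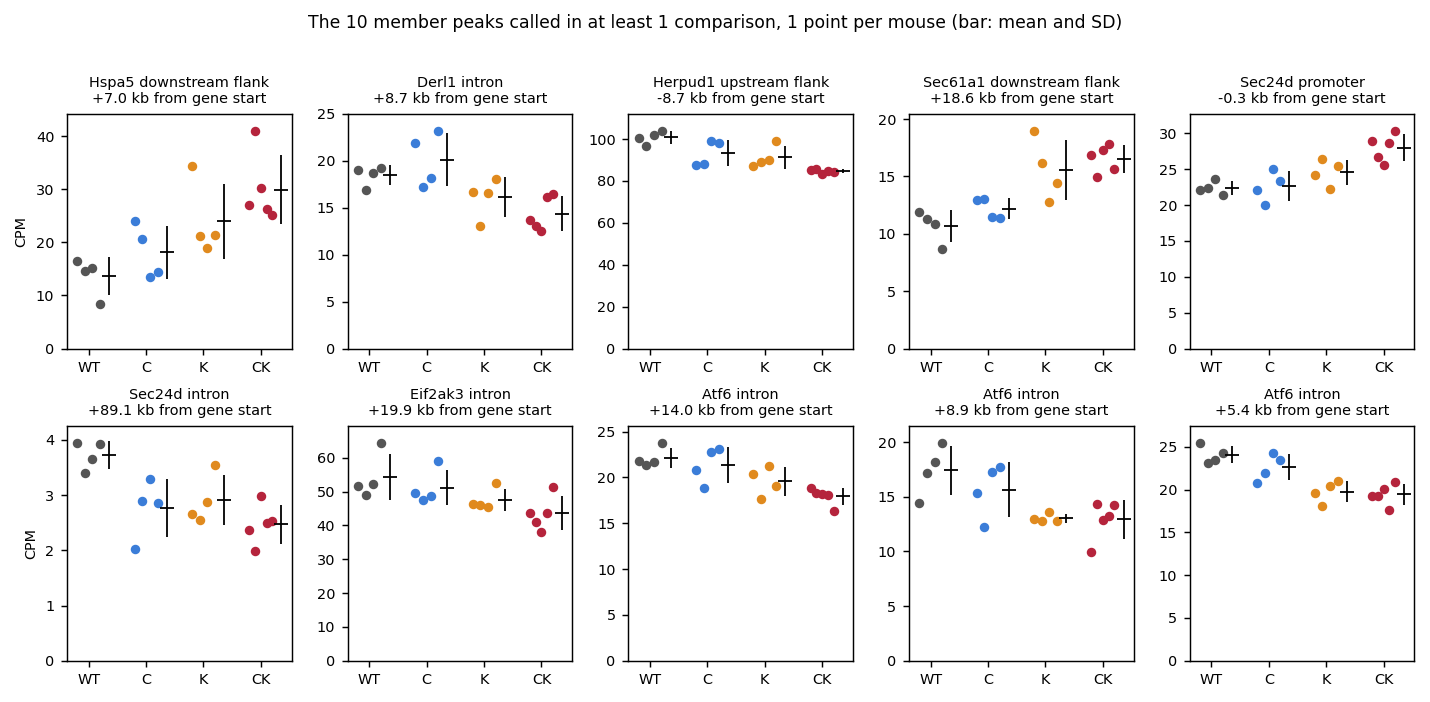
CPM in each mouse (points) with the genotype mean and SD (bars) at the 10 member peaks called in at least 1 comparison, with vertical axes from 0. The Hspa5 and Sec61a1 downstream peaks and the Sec24d promoter are higher in CK than in WT, the others lower, and CK overlaps WT at the Eif2ak3 intron peak only through CK replicate 5.

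Between the threshold and an adjusted p of 0.05 in CK lay 2 promoter peaks and 7 other peaks, none of which was called. The share of all peaks in this band is not given, so these counts cannot be set against the table. The promoter of Sec61a1 was the nearest of the promoters. It lay at 70.8, 68.1, 61.7 and 63.9 CPM in WT, 68.5, 70.2, 63.04 and 63.5 in C, 83.2, 75.4, 70.5 and 70.7 in K, while CK mice had 78.9, 73.3, 71.6, 76.9 and 73.2. All CK mice exceeded all WT mice, and K overlapped WT at its lower end. The promoter of Sec31a went from 53.4 ± 2.86 CPM in the 4 WT mice to 59.1 ± 2.75 (SD) in the 5 CK mice without being called. Among the other peaks, those downstream of Ssr1 (log2 change -0.22), in an intron of Derl1 5282 bp from its start (-0.31), in the called Derl1 intron peak (-0.36) and downstream of Herpud1 (-0.43) were lower in CK, and those in an intron of Manf at the promoter of Rbm15b (0.16), upstream of Sec23b at the promoter of Rbbp9 (0.47) and downstream of Atf6b (0.71) were higher. The last 2 had means of only 2.01 and 1.28 CPM in WT.

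The gained peak downstream of Sec61a1 (chr6:88499497-88501036, 18639 bp from the gene start) was the only member peak called in K. It lay at 11.9, 11.3, 10.9 and 8.64 CPM in WT, 12.98, 12.993, 11.4 and 11.4 in C, 18.9, 16.1, 12.8 and 14.4 in K, while CK mice had 16.9, 14.9, 17.3, 17.8 and 15.6. All K and CK mice lay above all WT mice, and C overlapped WT. The log2 fold change was 0.19 in C, 0.54 in K (95% interval 0.31 to 0.77, 1.45-fold, edgeR adjusted p = 0.00574) and 0.63 in CK (0.41 to 0.84, 1.55-fold, edgeR adjusted p = 0.000289). The rise in CK was called without any single mouse. The rise in K was not, since its edgeR adjusted p was 0.0106 without WT replicate 2, 0.0178 without WT replicate 3, 0.0293 without WT replicate 4, 0.0369 without K replicate 1 and 0.0150 without K replicate 2, with log2 fold changes of 0.43 to 0.57. The K value was 0.40 with and 0.73 without Y signal, where K replicate 2 was the only K mouse. The CK value was 0.57 with and 0.71 without Y signal. The Sec61a1 promoter, described above, was not called, and its log2 fold changes were 0.18 in K and in CK. The center of the gained peak, which is shown because it was called in both K and CK, held none of the motifs searched.
Sec61a1 downstream peak, chr6:88500167-88500366, minus strand: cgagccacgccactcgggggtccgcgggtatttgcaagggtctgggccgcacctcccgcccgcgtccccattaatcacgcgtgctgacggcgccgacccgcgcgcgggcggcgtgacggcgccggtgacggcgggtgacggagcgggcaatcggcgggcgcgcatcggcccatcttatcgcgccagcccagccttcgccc

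Sec24d also had a lost intronic peak (chr3:123356170-123356959, 89109 bp from the gene start), with few fragments. WT mice had 3.94, 3.39, 3.66 and 3.93 CPM, C mice 2.03, 2.89, 3.29 and 2.87, K mice 2.65, 2.55, 2.88 and 3.55, and CK mice 2.36, 1.99, 2.98, 2.49 and 2.54. C and CK were under WT in every mouse, and K overlapped WT. On the log2 scale the difference from WT was -0.43 in C, -0.35 in K and -0.59 in CK (95% interval -0.89 to -0.29, 0.666-fold, edgeR adjusted p = 0.00788). The call rested on the full set of mice, since it held in only 1 of 9 fits without a single mouse (without CK replicate 3), with an adjusted p of up to 0.0295 without WT replicate 4. It was -0.52 and not called with the GC content offset (edgeR adjusted p = 0.0153). It was -0.61 with and -0.59 without Y signal.

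The stress sensors and transcription factors had 8 promoter peaks, of which 0 were called in CK, and 51 other peaks, of which 4 were called, all lost and all in introns of Eif2ak3 and Atf6, where 10.1% of all promoters were called and 3.89% of other peaks were lost. None of these 4 calls was kept with the GC content offset. Ern1 was the only one of these promoters with an unadjusted p under 0.05, and DESeq2 called 0. The Ern1 promoter (chr11:106487031-106488463) lay at 47.9, 52.8, 44.7 and 49.6 CPM in WT, 48.8, 48.6, 49.5 and 49.9 in C, 58.1, 54.6, 53.6 and 47.7 in K, while CK mice had 59.1, 50.9, 53.1, 54.4 and 54.3. Most K and CK mice lay above WT, with overlap, and the log2 fold change of 0.16 in CK (95% interval 0.04 to 0.27) was not called (edgeR adjusted p = 0.0545) and fell to as low as -0.04 under the other settings. At the Eif2ak3 promoter (chr6:70843874-70845476) WT mice had 107 to 116 CPM, and the log2 fold changes were -0.06, 0.05 and -0.02 in C, K and CK. The Atf6 promoter (chr1:170867217-170868877) had 23.7, 26.5, 24.1 and 24.97 CPM in WT and 21.9, 25.4, 21.8, 23.1 and 23.3 in CK, a log2 fold change of -0.11 (95% interval -0.24 to 0.03) with overlapping groups. Those of Atf4 (chr15:80254462-80256310), which encodes the factor translated when PERK is active, and Ddit3 (chr10:127288446-127291474, shared with Mbd6), which encodes CHOP, had 0.00 (-0.10 to 0.11) and -0.03 (-0.12 to 0.06). With the GC content offset, alone or with a block for the replicate number, the Ddit3 promoter was called as lost at values down to -0.13 (edgeR adjusted p down to 0.00630).

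The called intronic peak of Eif2ak3 (chr6:70862705-70866210, 19942 bp from the gene start) lay at 51.6, 49.0, 52.1 and 64.2 CPM in WT, 49.6, 47.5, 48.6 and 58.9 in C, 46.3, 46.1, 45.3 and 52.6 in K, while CK mice had 43.8, 41.1, 38.1, 43.7 and 51.4. CK and WT overlapped, since CK replicate 5 exceeded WT replicate 2, and WT replicate 4 was far above the other WT mice. Against WT the log2 change was -0.08 in C, -0.19 in K and -0.32 in CK (95% interval -0.48 to -0.15, edgeR adjusted p = 0.00908). Without WT replicate 4 it was -0.23 (edgeR adjusted p = 0.0700), and it was called in 2 of 9 fits without a single mouse. The Eif2ak3 value was -0.23 and not called with the GC content offset (edgeR adjusted p = 0.0355). It was -0.21 with and -0.41 without Y signal.

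Atf6, which is transcribed from the minus strand, had 3 intronic peaks called as lost in CK, all in the part of the gene near its promoter. The peak 5413 bp from the gene start (chr1:170861419-170863297) had 25.4, 23.1, 23.4 and 24.3 CPM in WT, 20.8, 21.97, 24.2 and 23.4 in C, 19.6, 18.1, 20.5 and 20.95 in K, while CK mice had 19.3, 19.3, 20.1, 17.6 and 20.9. K and CK were under WT in every mouse, and C lay between with overlap. The log2 fold change was -0.28 in K (edgeR adjusted p = 0.0196, not called) and -0.31 in CK (95% interval -0.45 to -0.17, edgeR adjusted p = 0.00280), and the CK call was lost without WT replicate 1 (0.0111), WT replicate 4 (0.0107) or CK replicate 4 (0.0102).

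The Atf6 peak 8865 bp from the start (chr1:170858236-170859577) had 14.4, 17.2, 18.1 and 19.9 CPM in WT, 15.3, 12.3, 17.3 and 17.7 in C, 12.95, 12.7, 13.6 and 12.8 in K, while CK mice had 9.99, 14.4, 12.9, 13.2 and 14.2. All K and CK values were under those of WT, although CK replicate 2 and WT replicate 1 differ only beyond the digits given. The log2 fold change was -0.42 in K (edgeR adjusted p = 0.0338, not called) and -0.43 in CK (95% interval -0.66 to -0.21, edgeR adjusted p = 0.00895). The peak at 13955 bp (chr1:170853101-170854532), 50.7% of which is repeat sequence, had 21.8, 21.4, 21.7 and 23.7 CPM in WT, 20.8, 18.9, 22.7 and 23.04 in C, 20.3, 17.6, 21.2 and 19.1 in K, while CK mice had 18.8, 18.3, 18.2, 18.1 and 16.4. Every CK value was under every WT value, with a log2 fold change of -0.30 (95% interval -0.45 to -0.15, edgeR adjusted p = 0.00616). Without a single mouse these calls held in 3 of 9 fits at 8865 bp and in 1 of 9 at 13955 bp, with adjusted p up to 0.0513 and 0.0327, both without WT replicate 4. With and without Y signal the CK values were -0.41 and -0.24 at 5413 bp, -0.46 and -0.45 at 8865 bp, and -0.24 and -0.36 at 13955 bp. With the GC content offset the 3 Atf6 values were -0.23 at 5413 bp (edgeR adjusted p = 0.0158), -0.32 at 8865 bp (0.0323) and -0.23 at 13955 bp (0.0276), and none was called. A further intronic peak 2337 bp from the start had -0.21 in CK and was not called (edgeR adjusted p = 0.0670). The center of the peak at 13955 bp is printed on the strand of Atf6 because it holds, in capitals, a match to the AP-1 motif TGANTCA. That motif was found on either strand in 8 of 121 other member peaks (6.61%) and in 8.76% of all peaks, promoter peaks included.
Atf6 intron peak, chr1:170853717-170853916, minus strand: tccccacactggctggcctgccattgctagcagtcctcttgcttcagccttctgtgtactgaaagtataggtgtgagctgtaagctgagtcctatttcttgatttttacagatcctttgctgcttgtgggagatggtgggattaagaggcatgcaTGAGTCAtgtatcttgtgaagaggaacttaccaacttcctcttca

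Edem3, which trims mannose from misfolded glycoproteins, and Ern1 are the other members with many peaks. Of the 8 other peaks of Edem3, 7 had values below 0 in CK, from -0.61 to 0.60 with a median of -0.32, and 4 passed an unadjusted p of 0.05 without being called. Of the 11 other peaks of Ern1, 6 had values below 0 in CK, from -0.22 to 0.40 with a median of -0.04, and 1 passed an unadjusted p of 0.05 without being called. Of the table's other peaks, 54.6% were below 0 in CK, and 13329 of 49304 passed that level. The plot of peaks along these 4 genes shows that the called Atf6 peaks lie together.

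**Figure D4:**
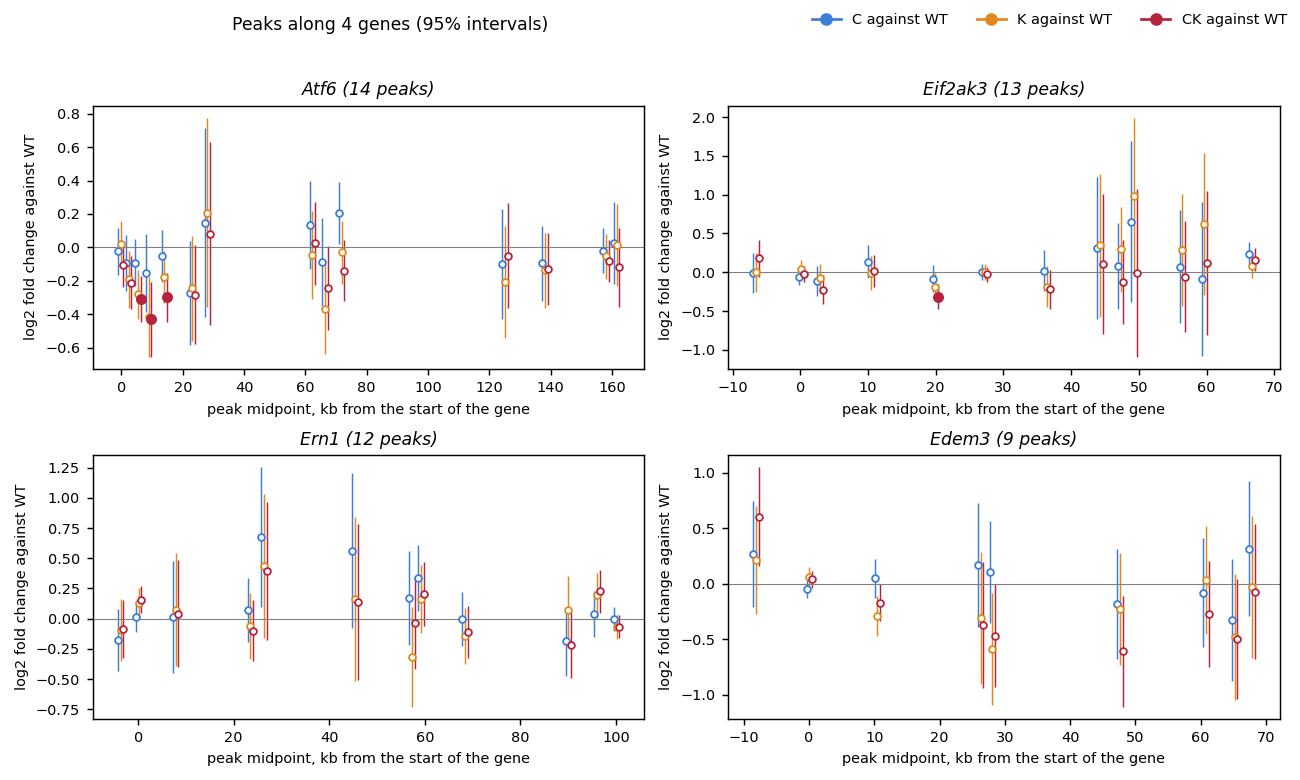
Log2 fold change against WT with its 95% interval (vertical axis) for C, K and CK at each peak of Atf6, Eif2ak3, Ern1 and Edem3, against the distance of the peak's midpoint from the gene start in kb. Filled circles are called, and they are the 3 Atf6 peaks between 5413 and 13955 bp and the Eif2ak3 peak at 19942 bp, all lost in CK.

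The motif GGAANNGAAA, the composite element of ETS factors with IRF4 or IRF8, was found in 4 of 121 other member peaks (3.31%). It was in 4.55% of all peaks, promoter peaks included, and in none of the member peaks called.

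The genotypes were also compared with each other. Between K and C, 0 promoter peaks and 0 other peaks were called, where 0.788% of all peaks were. At an unadjusted p under 0.05, edgeR gave 13 promoter peaks, all higher in K, and 20 other peaks. At this level 4042 of all 16179 promoters passed, 3457 of them higher in K, and 17.9% of all peaks did. DESeq2 called 0 promoter peaks and 1 other peak. Between CK and C the Sec24d promoter and the Derl1 intron peak were called. In this comparison 1.68% of all peaks, 3.07% of promoters and 1.22% of other peaks were called. At an unadjusted p under 0.05 there were 12 promoter and 26 other peaks, where 4879 of all 16179 promoters and 21.2% of all peaks passed. DESeq2 called 1 promoter peak and 5 other peaks. Between CK and K, 0 of 172 were called, where 0.00916% of all peaks were, with 1 promoter and 5 other peaks at an unadjusted p under 0.05 (7.35% of all) and 0 called by DESeq2. A departure of CK from the C change plus the K change, on the log2 scale, was asked for in the same model, and 0 of 172 were called, where 0.0107% of all peaks were, with 0 promoter and 2 other peaks at an unadjusted p under 0.05 (3.73% of all) and 0 called by DESeq2.

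A further 50 genes of the same pathway were counted. In C, edgeR called 0 of their peaks, with 1 promoter and 9 other peaks at an unadjusted p under 0.05, where 0.160% of all peaks were called and 8.90% passed that level. In CK, 3 of 59 promoter peaks were called, all gained, where 8.61% of all promoters were gained. They belonged to Ero1l, the oxidase that supplies disulfide bonds (log2 fold change 0.36, edgeR adjusted p = 0.00226), Sec24b, another COPII cargo adaptor (0.34, edgeR adjusted p = 0.00195), and Mbtps1, the protease that activates ATF6 (0.26, edgeR adjusted p = 0.00774). Among 138 other peaks 2 were gained and 4 lost, where 1.88% of the table's other peaks were gained and 3.89% lost. The gained ones lay downstream of the chaperone-associated Creld2 (0.60, edgeR adjusted p = 0.000219) and upstream of Mzb1, a B-cell cochaperone, at the promoter of Prob1 (0.28, edgeR adjusted p = 0.000611). Of the lost ones 2 lay in Dnajc10, which encodes an ER disulfide reductase (-0.46 and -1.13), and the others downstream of Spcs2, a signal peptidase subunit (-0.31), and upstream of Tram1, a translocon-associated protein (-0.22). In K, where 1.96% of promoters and 1.32% of other peaks were called, the promoter of Asns, the asparagine synthetase induced by ATF4, was gained (0.39, edgeR adjusted p = 0.00673) and the same 2 Dnajc10 peaks were lost (-0.43 and -1.20). The Xbp1 promoter had -0.02 in CK (edgeR adjusted p = 0.844).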

How the data were processed

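ATAC-seq libraries were made from GC B cells of 17 mice (4 WT, 4 C, 4 K and 5 CK). Reads were aligned to mm10 by the authors, who called peaks over all libraries through nf-core's ATAC-seq workflow after removing duplicates. The deposited values are raw counts of fragments in each consensus peak (featureCounts 2.0.1) and were not normalized. A further 7 CB and CC libraries were not analysed here.

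Peaks were assigned to genes with GENCODE M21. The 65483 peaks (0 had fewer than 10 counts summed over libraries) were fitted together in edgeR 4.0.16 (R 4.3.3, TMM factors, 1 coefficient per genotype, quasi-likelihood F test, Benjamini-Hochberg adjustment), and called at an adjusted p under 0.01. CPM used TMM library sizes. Replicates are separate mice. Intervals are 95% intervals of the fit. Depth was 17483706 to 21857738 fragments per library.

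Named were the strongest promoter peak of Hspa5, Hsp90b1, Ern1, Atf6, Eif2ak3, Atf4 and Ddit3, up to 6 called peaks per kind and direction against WT, and up to 4 per direction in the other comparisons. Members and lists were chosen with earlier results of these data known. Alternatives were DESeq2 1.42.0, its size factors, loess (limma 3.58.1) and GC content offsets, a count filter, an adjusted p of 0.05, a fold above 1.5, a replicate block, chromosome Y share, other windows, only the genotypes compared, and each mouse left out. A yes or no Y covariate and fits within libraries with or without Y signal were added after seeing the data. Sequences came from RefSeq GRCm38.p6.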

Additional observations from a re-analysis of the deposited data

Results flagged for a closer look

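Among the 17 named peaks, each genotype was searched for a mouse set far apart from the others by Dixon's test at the 95% level, and 3 of 68 tests passed, where chance gives about 1 in 20. At the Hspa5 promoter, WT replicate 3 was lowest at 117 CPM while the other WT mice lay at 119 CPM. At the peak downstream of Hspa5, K replicate 1 was highest at 34.4 CPM against 18.998 to 21.3 in the other K mice. At the called intronic peak of Eif2ak3, K replicate 4 was highest at 52.6 CPM against 45.3 to 46.3 in the other K mice.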

How the results depend on the processing

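No call reversed direction under any alternative. The counts in this section are of member peaks only. The shares of all peaks called at each setting are not given, so these counts cannot be set against the table. At an adjusted p of 0.05 the counts of called peaks were 6 other peaks in K, 3 promoter and 15 other peaks in CK, 2 other peaks in K against C, and 4 promoter and 10 other peaks in CK against C. With a fold above 1.5 they were 0 other peaks in K, 0 promoter and 3 other peaks in CK, and 0 of both kinds in CK against C. DESeq2 called 2 other peaks in K, 1 in K against C and 5 in CK against C, and with its size factors in edgeR 0 promoter peaks were called in CK against C. With the GC content offset there were 4 promoter and 4 other peaks in CK and 0 of both kinds in CK against C, and with loess offsets 2 promoter peaks in CK. A promoter window of 2.5 kb gave 3 promoter peaks in CK. Fitting only the genotypes compared gave 0 other peaks in K, and 0 promoter and 2 other peaks in CK against C. With the share of chromosome Y as a covariate, 0 other peaks were called in K and 0 of both kinds in CK. In CK against C it gave 0 promoter peaks. This share did not follow the short-arm Y signal. WT replicate 1, with signal, had 278 CPM, and WT replicate 3 and C replicate 4, without signal, had 279 and 1009. The share ran higher in CK (425 to 723 CPM) than in WT (246 to 567), with overlap. That fit therefore does not adjust for Y signal, and it cannot fully separate the share from genotype. A yes or no covariate for Y signal gave 2 promoter peaks in CK and 4 other peaks in CK against C. Libraries with Y signal alone gave 0 calls in each, and those without gave 3 other peaks in CK and 0 in CK against C. Counts for K are left out there, since K replicate 2 was its only mouse without Y signal. The last 2 rest on fewer mice, and otherwise the cause was not tested.

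Samples with the same replicate number deviated together in part. Over all peaks, 12 of 24 such pairs had a correlation over 0.1 (range -0.09 to 0.22, median 0.100, against -0.01 for other numbers), among them all 6 pairs of replicate 1. In each of these 12 pairs both libraries had Y signal or both lacked it. The highest correlation between genotypes, 0.27, was between WT replicate 4 and CK replicate 5, both without Y signal. Whether the agreement goes with the number or with Y signal was not tested. Since not every pair passed 0.1 and the labels give no shared origin, the numbers were not taken as pairs. With a replicate block, 1 promoter and 3 other peaks were called in K, 3 and 14 in CK (2 gained and 12 lost), 1 and 1 in K against C and 2 and 6 in CK against C, and 10 of 17 libraries correlated best with their own number. The block with the GC content offset gave 2 other peaks in K, 5 promoter peaks in CK, and 0 promoter and 5 other peaks in CK against C. Leaving out each mouse in turn gave 0 to 1 other peaks in K, 0 to 1 promoter peaks in CK (0 without WT replicate 4), 3 to 9 other peaks in CK (3 without WT replicate 4 or CK replicate 4 and 9 without CK replicate 5), and 0 to 2 of each kind in CK against C. Other peaks, at a median of 118 fragments per library, had wider 95% intervals in CK (median half-width 0.25 on the log2 scale) than promoters (0.10), so that precision differed from peak to peak.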
